A study of Mus musculus with 10 samples.

Results

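Neurogranin, calmodulin and the calcium/calmodulin-dependent (CaM) kinases were followed by ribosome footprints through mouse neocortex development, as 9 genes chosen by name out of 22373 in the table: Nrgn, Calm2, Calm3, Camk2a, Camk2b, Camk2d, Camk2g, Camk4 and Camkv. Nrgn headed the choice because it had the largest rise at birth in these same libraries. Its values at E17 and P0 are therefore given as a description, without a test, and it is left out of the counts of genes called. The neocortex of mice was dissected at 5 stages, the embryonic days E12.5, E14, E15.5 and E17 and the day of birth (P0), with 2 Ribo-seq libraries per stage, 10 in all, no treatment or genotype being compared. Each library came from the pooled neocortices of many embryos or pups, and all lysates were digested with RNase T1 and RNase A, without cycloheximide, to leave the mRNA fragments covered by ribosomes.

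Calmodulin is the main calcium sensor of the cell, and several genes encode the same protein. When it binds calcium it switches on the CaM kinases, among them the CaMKII family (Camk2a, Camk2b, Camk2d and Camk2g), which acts at synapses, and CaMKIV (Camk4), which acts in the nucleus. Neurogranin is a small neuronal protein that holds calmodulin in its calcium-free form near the postsynaptic membrane, and Camkv is a kinase-like protein of synaptic vesicles that binds calmodulin but lacks kinase activity.

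The libraries held between 7544404 and 36129988 counts, the fewest in P0 replicate 1, and values are given as CPM (counts relative to library size) after TMM scaling. All 9 genes were among the 13484 with at least 32 footprints at some stage, the set that was tested. The P0 replicates differed most: the SD of the log2 ratio of replicate 2 to replicate 1 was 0.54 at P0 and 0.13 to 0.22 at the other stages, over 4559 well-covered genes. A gene was called changed at an absolute log2 fold change of at least 0.32 and an adjusted p under 0.05 by limma-voom with Benjamini-Hochberg adjustment over all tested genes. The tissue carried its defining markers: all 9 excitatory neuron markers were detected in every library, with a summed level of 496 to 997 CPM. The 10 pan-neuronal markers summed to 2122 to 2160 CPM at E12.5 and 2841 to 2911 CPM at E14. They summed to 6135 to 6372 CPM at E15.5, 6482 to 6778 CPM at E17 and 7831 to 8796 CPM at P0. The part of neuron number in the changes below was not tested. In such bulk tissue, fewer cells of a type and less RNA per cell cannot be told apart. Footprint counts alone also do not separate the amount of an mRNA from the number of ribosomes on it. No RNA-seq was used here.

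RefSeq promoters on GRCm38.p6 were at hand for 5 of the 9 genes. The 250 bases before the start site are shown for the strongest riser, Nrgn (chr9:37552746-37552995, minus strand), for Camk2b (chr11:6065749-6065998, minus strand) and Camkv (chr9:107935670-107935919, plus strand), which had the most similar profiles among the kinases, and for Camk2d (chr3:126596701-126596950, plus strand), the CaMKII gene that moved least. Capitals mark an E-box, CANNTG, the site read by proneural bHLH factors.
Nrgn: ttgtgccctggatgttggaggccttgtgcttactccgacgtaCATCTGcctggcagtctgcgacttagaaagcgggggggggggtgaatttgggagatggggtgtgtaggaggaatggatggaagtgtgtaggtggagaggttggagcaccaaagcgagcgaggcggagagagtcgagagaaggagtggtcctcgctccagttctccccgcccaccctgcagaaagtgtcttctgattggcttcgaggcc
Camk2b: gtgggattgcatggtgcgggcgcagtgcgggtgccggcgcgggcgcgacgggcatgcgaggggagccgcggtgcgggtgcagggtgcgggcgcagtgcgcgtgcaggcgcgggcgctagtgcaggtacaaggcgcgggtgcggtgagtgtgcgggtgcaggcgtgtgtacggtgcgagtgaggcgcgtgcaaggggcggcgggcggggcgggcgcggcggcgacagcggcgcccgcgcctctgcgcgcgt
Camkv: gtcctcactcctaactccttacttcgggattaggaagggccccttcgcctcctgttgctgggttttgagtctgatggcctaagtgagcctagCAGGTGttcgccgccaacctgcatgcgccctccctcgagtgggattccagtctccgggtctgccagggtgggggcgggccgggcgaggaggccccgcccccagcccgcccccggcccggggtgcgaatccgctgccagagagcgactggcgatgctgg
Camk2d: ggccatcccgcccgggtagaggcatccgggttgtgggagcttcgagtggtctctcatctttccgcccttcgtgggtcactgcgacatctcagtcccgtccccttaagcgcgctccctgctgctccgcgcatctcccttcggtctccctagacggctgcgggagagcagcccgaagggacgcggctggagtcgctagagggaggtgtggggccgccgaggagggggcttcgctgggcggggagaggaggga
An E-box was found in Nrgn and Camkv, 1 each, and not in Camk2b or Camk2d, and 66.2% of all 32851 promoters of this length hold one. The GC box GGGCGG, the site of Sp1-type factors, was found 3 times in each of Camk2b, Camkv and Camk2d and 1 time in Nrgn, against 32.7% of all promoters with at least 1. None of the 4 held the cAMP response element TGACGTCA, which 1.55% of promoters hold, or the TATA motif TATAAA, which 12.4% hold. Both strands were searched. The GC content was 58.4% in Nrgn, 78.4% in Camk2b, 67.6% in Camkv and 68.4% in Camk2d, and the median of all promoters was 52.4%. A motif match is a description of the letters, and no binding was measured.

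Nrgn (ENSMUSG00000053310) had few footprints in the early neocortex and gained most of them by birth. The E12.5 libraries had 2.37 and 2.39 CPM, the E14 libraries 3.18 and 2.76, the E15.5 libraries 8.65 and 12.54, the E17 libraries 27.9 and 37.4, and the P0 libraries 318 and 306. The stages followed each other in order of age with no overlap between neighbours, and the 2 lowest, E12.5 and E14, did not differ by the test (log2 fold change 0.30, SE 0.29, adjusted p = 0.686). Nrgn rose 3.49-fold from E14 to E15.5 (log2 1.80, SE 0.24, adjusted p = 0.000803) and 4.3-fold from E12.5 to E15.5 (log2 2.10, SE 0.26, adjusted p = 0.000334). The spread in these tests is shared over all 10 libraries, so it includes the E17 and P0 libraries by which Nrgn was chosen. From E12.5 to E15.5, 22.2% of all tested genes were called higher and 24% lower. Leaving out any library moved the E12.5 to E15.5 change between 1.86 and 2.39 on the log2 scale, and it stayed called.

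The values that chose Nrgn followed. Its mean was 3.12-fold higher at E17 than at E15.5 and 9.67-fold higher at P0 than at E17 (log2 3.27), which made P0 130-fold above E12.5. Among genes rising at birth, the next by the same rule were Meig1, with a log2 rise of 2.41 from 1.74 to 8.47 CPM, and Prrt1, with 2.21 from 3.87 to 19.9 CPM. The count behind the Nrgn value was between 43 and 87 in each of the E12.5 and E14 libraries, so counting error was relatively largest at these stages.

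**Figure D1:**
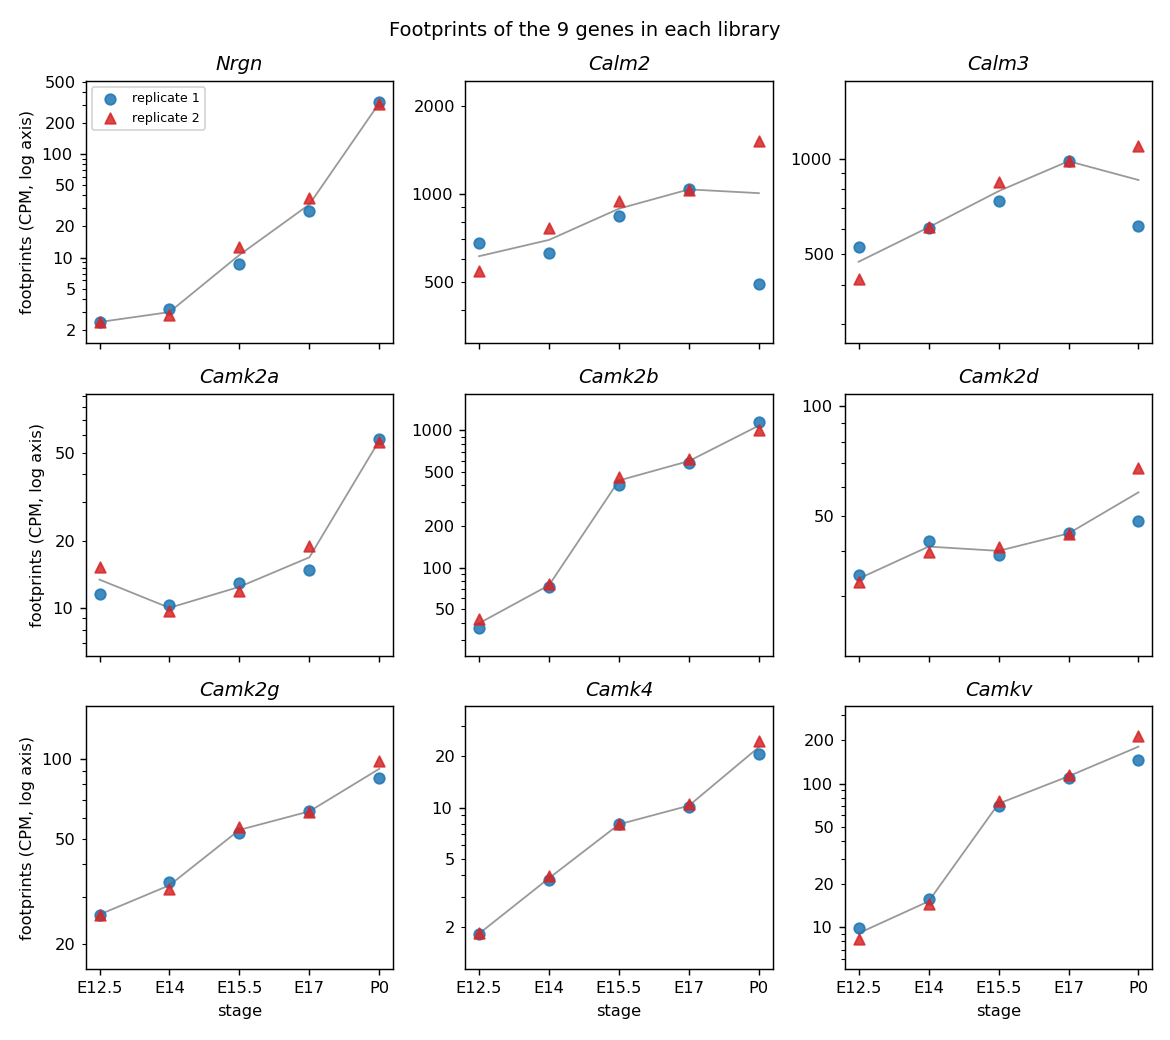
Footprints of each of the 9 genes in CPM (log axis, scaled separately for each gene) against stage; points are the single libraries, with circles for replicate 1 and triangles for replicate 2, and the grey line joins the means of 2 libraries. Nrgn climbs from E14 on to 318 and 306 CPM at P0, Camk2b and Camkv step up most between E14 and E15.5, and the P0 replicates of Calm2 and Calm3 lie far apart.

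Neurogranin is also made by platelets, so markers of blood were read beside it. The 8 platelet and megakaryocyte markers summed to 14 to 18.2 CPM in the E12.5 and E14 libraries, to 0.718 to 0.857 CPM in those of E15.5 and E17, and to 3.26 and 1.07 CPM at P0. In each P0 library 3 of the 8 were at 0, Gp9 and Treml1 in both, Clec1b in replicate 1 and Gp1ba in replicate 2. The other 4 were above 0 in both P0 libraries, with Gp1bb, a subunit of a platelet adhesion receptor, at 1.96 and 0.263 CPM, Pf4 at 0.326 and 0.453, Itga2b at 0.435 and 0.215 and Ppbp at 0.326 and 0.119. Red blood cell markers summed to 11214 and 11607 CPM at E12.5 and to 1862 and 1439 CPM at P0. Some summed markers of other sources moved in the same direction as Nrgn from E12.5 to P0. Those of the ganglionic eminence and striatum were at 30.0 to 32.6 CPM at E12.5 and 200.0 to 212 CPM at P0. There, Lhx6 went from 7.65 and 7.63 CPM to 78.9 and 64.3 CPM and Gad1 from 1.65 and 2.21 to 51.1 and 54.1. Ebf1 fell from 3.30 and 2.54 CPM to 0.653 and 0.310, and Isl1 was at 0.165 and 0 CPM and then 0 in both. Those of astrocytes and the oligodendrocyte lineage were at 79.2 to 84.9 CPM at E12.5, 58.0 and 64.8 CPM at E15.5 and 188 to 212 CPM at P0. From E12.5 to E15.5 Gja1 went from 41.7 and 35.6 CPM to 2.08 and 1.94, and Aldh1l1 from 1.16 and 0.524 to 11.7 and 12.9. Neural progenitor markers summed to 2163 to 2518 CPM before birth and 1459 and 1993 CPM at P0. Within that sum, Fabp7, a fatty acid binding protein of radial glia, went from 1039 and 899 CPM at E12.5 to 1972 and 2136 CPM at E17, while Pax6 went from 202 and 202 CPM to 51.4 and 45.8 CPM and Vim from 687 and 762 CPM to 222 and 193 CPM. Microglia markers summed to 20.3 to 35.6 CPM throughout. Their part in the rise of Nrgn and of the kinases was not tested.

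Calm2 and Calm3 were translated at every stage, and their changes from E12.5 to P0 were smaller than those of Camk2a, Camk2b, Camk2g, Camk4 and Camkv. Calm2 (ENSMUSG00000036438) was at 678 and 547 CPM (E12.5), 627 and 766 (E14), 838 and 942 (E15.5), 1040 and 1031 (E17) and 494 and 1518 (P0). The P0 libraries thus held the lowest and the highest Calm2 value of the series. Calm2 was not called at any step, and its P0 versus E12.5 change was 0.49 on the log2 scale (SE 0.42, adjusted p = 0.338). That value hung on P0: leaving out P0 replicate 1 gave 1.32 (adjusted p = 0.000124), and leaving out P0 replicate 2 gave -0.27 (adjusted p = 0.163). No direction at birth can be given either, since P0 versus E17 came to 0.55 when P0 replicate 1 was dropped and to -1.04 when P0 replicate 2 was (limma adjusted p = 0.0298 and 0.00268). Without either P0 library in turn, Calm2 was called higher from E14 to E15.5, with log2 changes of 0.36 (adjusted p = 0.0441 and 0.0447).

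Calm3 (ENSMUSG00000019370), at 527 and 417 CPM at E12.5, passed through 604 and 609 (E14) and 734 and 844 (E15.5) to 981 and 981 (E17), and stood at 612 and 1099 at P0. The groups did not overlap up to E17, while the P0 libraries lay on both sides of E17. From E12.5 to P0 Calm3 rose by 0.80 on the log2 scale (SE 0.24, adjusted p = 0.0192), a call that was lost without E12.5 replicate 2 (0.63, adjusted p = 0.116). From E17 to P0 it was not called (-0.27), and dropping P0 replicate 1 gave 0.16, while dropping P0 replicate 2 gave -0.65, then called (adjusted p = 0.0107). From E14 to E15.5 it was not called (adjusted p = 0.265), but was with P0 replicate 1 or P0 replicate 2 left out (log2 0.38 each). That step was also called with total counts (log2 0.67, limma adjusted p = 0.0488) and with sample quality weights (log2 0.37, limma adjusted p = 0.0327).

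Calm2 and Calm3 encode the same protein, so their coding sequences have equal length and their levels can be set side by side. Calm2 exceeded Calm3 in 9 of 10 libraries, the exception being P0 replicate 1. Near-identical copies and pseudogenes of calmodulin exist in the genome, and how the counting divided shared reads is not known, so these levels carry that uncertainty.

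Among the CaMKII genes, Camk2b (ENSMUSG00000057897), the beta subunit that binds actin, had the steepest course. It was at 36.5 and 42.6 CPM (E12.5), 72.8 and 76.6 (E14), 403 and 461 (E15.5), 577 and 619 (E17) and 1154 and 1012 (P0). No stage overlapped another, and the 27.4-fold rise from E12.5 to P0 (log2 4.78, SE 0.12, adjusted p = 3.74e-07) was the largest of the 8 genes tested. More than the other steps, E14 to E15.5 carried it, with a 5.77-fold rise (log2 2.53, SE 0.12, adjusted p = 2.74e-05), and P0 was 1.81-fold above E17 (log2 0.86, SE 0.12, adjusted p = 0.00326). The calls of the smaller steps were less secure. The fit shares its spread over all libraries, so a library outside a step can change its call. Without an E15.5 or E17 library the E12.5 to E14 value stayed at log2 0.92. Without an E12.5 or E14 library the E15.5 to E17 value stayed at log2 0.47. The rise from E12.5 to E14 (log2 0.92, adjusted p = 0.0309) lost its call without any 1 of the 8 embryonic libraries, with values of 0.81 to 1.03 and adjusted p of 0.0874 to 0.233. The rise from E15.5 to E17 (log2 0.47, adjusted p = 0.0460) likewise lost its call without any 1 of those 8, with values of 0.37 to 0.56 and adjusted p of 0.0618 to 0.310.

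Camk2a (ENSMUSG00000024617), the alpha subunit and the main CaMKII of the adult forebrain, stayed low before birth. Its libraries were at 11.6 and 15.3 CPM (E12.5), 10.3 and 9.76 (E14), 13.0 and 11.9 (E15.5), 14.8 and 19.0 (E17) and 57.4 and 55.9 (P0). E12.5 overlapped with both E15.5 and E17, and no step between embryonic stages was called (log2 -0.42, 0.32 and 0.42, adjusted p = 0.277, 0.180 and 0.145). With total counts the E14 to E15.5 step was called (log2 0.61, limma adjusted p = 0.0171). With sample quality weights the E15.5 to E17 step was called (log2 0.41, limma adjusted p = 0.0319). Camk2a then rose 3.37-fold from E17 to P0 (log2 1.75, SE 0.15, adjusted p = 0.000936), the largest rise of the 8 genes at birth, and was 4.21-fold above E12.5 (log2 2.07, SE 0.16). The ratio of Camk2b to Camk2a counts was 3.14 and 2.78 (E12.5), 7.05 and 7.85 (E14), 31.0 and 38.6 (E15.5), 38.9 and 32.5 (E17) and 20.1 and 18.1 (P0), so it was highest before birth and lower at P0. This ratio is not divided by coding length, and only its course over the stages can be read.

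Camk2g (ENSMUSG00000021820), the gamma subunit, which carries calmodulin toward the nucleus, rose in smaller steps, from 25.9 and 25.9 CPM at E12.5 through 34.3 and 32.4 (E14), 52.7 and 55.2 (E15.5) and 63.4 and 63.2 (E17) to 84.8 and 98.4 at P0. The stages did not overlap, and the total rise was 3.55-fold (log2 1.83, SE 0.10, adjusted p = 2.47e-06). The E14 to E15.5 step was called (log2 0.69, SE 0.10, adjusted p = 0.00129). The E17 to P0 step was called as well (log2 0.54, SE 0.10, adjusted p = 0.00859), though not without E17 replicate 1 (adjusted p = 0.0739) or E17 replicate 2 (adjusted p = 0.0552). The E12.5 to E14 change of 0.36 (adjusted p = 0.142) was not called, but was with P0 replicate 1 or P0 replicate 2 left out, at adjusted p = 0.0262 and 0.0288 with log2 0.37 each.

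Camk2d (ENSMUSG00000053819), the delta subunit, widespread outside the brain and best known from heart, moved least of the family. It was at 34.2 and 32.8 CPM (E12.5), 42.5 and 39.6 (E14), 39.0 and 41.0 (E15.5), 44.8 and 44.5 (E17) and 48.2 and 67.8 (P0). E14 and E15.5 overlapped, and no single step was called (log2 0.29, -0.04, 0.16 and 0.38). Their sum reached the threshold, with P0 1.73-fold above E12.5 (log2 0.79, SE 0.15, adjusted p = 0.00200). With total counts the E17 to P0 step was called (log2 0.50, limma adjusted p = 0.0392). Without P0 replicate 1 the last step was called (log2 0.60, adjusted p = 0.00200).

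**Figure D2:**
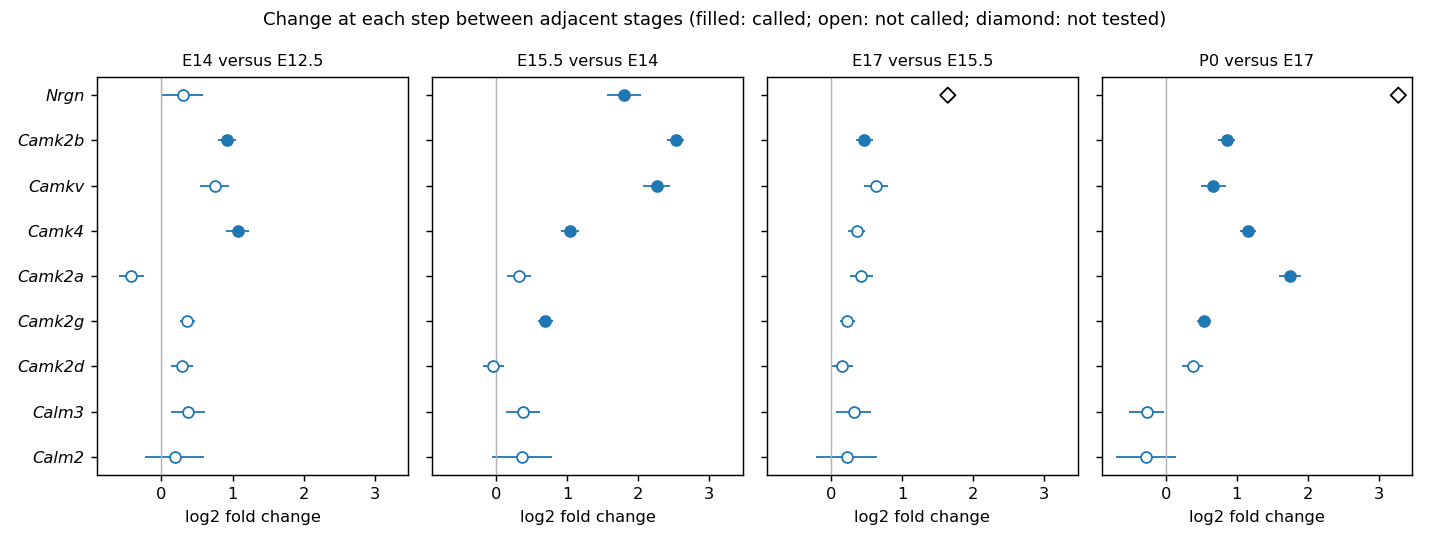
Log2 fold change of each gene at the 4 steps between adjacent stages; filled points were called, open circles were not, bars are 1 SE, and diamonds show the Nrgn values at E17 and P0, which were not tested. Camk2b and Camkv lie above 2 in the E15.5 versus E14 panel, Camk2a lies highest of the tested genes in the P0 versus E17 panel, and Calm2 has the widest bar in each panel.

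The shares of the 4 genes among all CaMKII footprints were compared between the early and the late stages. Camk2b gave on average 41.0% ± 7.02 of CaMKII footprints in the E12.5 and E14 libraries and 83.3% ± 1.73 in the E17 and P0 libraries (SD, n = 4 each). Each group joins libraries of different stages, so these SDs include the change between stages. For Camk2b, E12.5 was at 33.7 and 36.5% and E14 at 45.5 and 48.4%. Camk2d went from 27.8% ± 2.83 to 5.36% ± 1.24, Camk2g from 22.0% ± 1.46 to 7.96% ± 1.19, and Camk2a from 9.12% ± 3.39 to 3.37% ± 1.21. All libraries of the early stages lay apart from those of the late stages in each of the 4 shares. The exact two-sided permutation test gave p = 0.0286 for each, the smallest that 4 against 4 libraries allow, and 0.05 after adjustment over the 7 shares tested, 3 of them not reported here, which does not pass the threshold. The permutation exchanged libraries of different stages, so its p does not measure the spread between libraries of the same stage. The 4 shares add to 100, so they are not independent, and they are not divided by coding length. E15.5, which entered no test, already stood at 79.4 and 81.0% for Camk2b. Within the late stages, Camk2a was at 2.12 and 2.55% at E17 and 4.27 and 4.53% at P0.

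**Figure D3:**
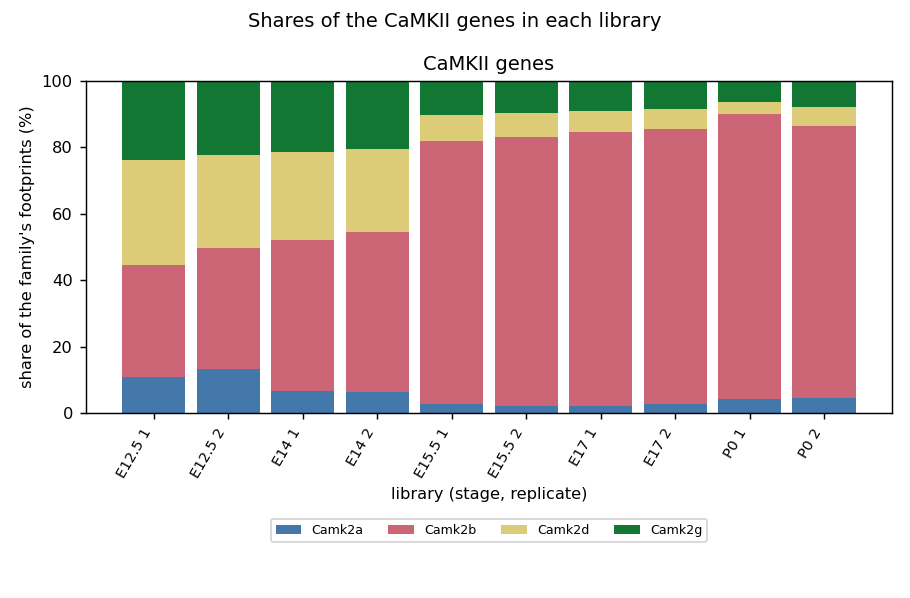
Share in percent of the footprints of the 4 CaMKII genes in each of the 10 libraries, stacked to 100. Camk2b is at 33.7 and 36.5% at E12.5 and at 79.4 and 81.0% at E15.5, and the other 3 genes make up the rest.

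Camk4 (ENSMUSG00000038128), which encodes CaMKIV, a kinase that phosphorylates CREB, rose at E15.5 and again at birth. Its libraries were at 1.82 and 1.83 CPM (E12.5), 3.75 and 3.96 (E14), 7.98 and 7.98 (E15.5), 10.03 and 10.51 (E17) and 20.8 and 24.5 (P0). The stages did not overlap, and P0 was 12.4-fold above E12.5 (log2 3.63, SE 0.15, adjusted p = 7.68e-07). It rose 2.06-fold from E14 to E15.5 (log2 1.04, adjusted p = 0.000583) and 2.23-fold from E17 to P0 (log2 1.16, adjusted p = 0.00106). Here too the shared spread lets a library outside a step change its call. Without an E15.5 or E17 library the E12.5 to E14 value was log2 1.07 to 1.08. The rise from E12.5 to E14 (log2 1.07, adjusted p = 0.0423) lost its call without any 1 of the 8 embryonic libraries, with values of 1.03 to 1.11 and adjusted p of 0.115 to 0.264. The E15.5 to E17 change of 0.36 was not called (adjusted p = 0.0927), but was with P0 replicate 1 or P0 replicate 2 left out (adjusted p = 0.0197 and 0.0214).

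Camkv (ENSMUSG00000032936) was at 9.96 and 8.23 CPM (E12.5), 15.8 and 14.5 (E14), 69.7 and 75.3 (E15.5), 109 and 116 (E17) and 146 and 215 (P0), again without overlap. It rose 19.8-fold over the whole span (log2 4.31, SE 0.20, adjusted p = 1.03e-06) and 4.78-fold from E14 to E15.5 (log2 2.26, SE 0.19, adjusted p = 0.000122). The E17 to P0 rise was called (log2 0.67, SE 0.17, adjusted p = 0.0287), but not when any 1 of E14 replicate 1, E14 replicate 2, E15.5 replicate 1, E17 replicate 1 and E17 replicate 2 was left out (log2 0.63 to 0.71, adjusted p = 0.0504 to 0.165). Neither the E12.5 to E14 change (0.75, adjusted p = 0.133) nor the E15.5 to E17 change (0.63, adjusted p = 0.0587) was called. Both were called with DESeq2 (adjusted p = 0.0141 and 0.0121) and with sample quality weights (limma adjusted p = 0.0262 and 0.000770). The second was also called with total counts (limma adjusted p = 0.0388) and with RLE (limma adjusted p = 0.0461). Without P0 replicate 1 or P0 replicate 2 both were, at adjusted p = 0.0139 and 0.0149 for the first and 0.00301 and 0.00375 for the second.

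Counted over the 8 genes other than Nrgn, calls fell in 1 direction only. From E12.5 to E14, 2 of 8 were called higher and 0 lower, against 0.497% and 0.141% of all tested genes. From E14 to E15.5, 4 of 8 were called higher and 0 lower, against 16.5% and 19.6%, the 4 being Camk2b, Camkv, Camk4 and Camk2g. From E15.5 to E17 only Camk2b was called, 1 of 8 higher and 0 lower, against 5.61% and 3.43%. From E17 to P0, 5 of 8 were higher and 0 lower, against 9.46% and 11.1%, with Camk2a joining the kinases of the earlier step. From E12.5 to P0, 7 of 8 were higher and 0 lower, all but Calm2, against 30.1% and 32%. The median log2 change of the 8 was 1.95 over this span, and that of all tested genes was -0.01. Scaling by library totals alone moved the median of all genes to 0.51, and the genes called higher then made up 72.0% of calls in place of 48.5%. The same share went from 77.9 to 90.9% for E14 versus E12.5, from 45.6 to 72.7% for E15.5 versus E14, from 46.1 to 63.4% for P0 versus E17 and from 48.1 to 72.3% for E15.5 versus E12.5.

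Set against the summed footprints of Calm2 and Calm3, neurogranin and CaMKII grew. Per 100 such footprints, Nrgn stood at 0.196 and 0.248 (E12.5), 0.258 and 0.201 (E14), 0.550 and 0.702 (E15.5), 1.38 and 1.86 (E17) and 28.8 and 11.7 (P0). E12.5 and E14 overlapped and the later stages did not. The 4 CaMKII genes together stood at 8.97 and 12.1 per 100 (E12.5), 13.0 and 11.5 (E14), 32.3 and 31.9 (E15.5), 34.6 and 37.1 (E17) and 122 and 47.2 (P0). The spread at P0 came with the summed level of Calm2 and Calm3, which was 1106 CPM in replicate 1 and 2616 CPM in replicate 2, while CaMKII was at 1345 and 1234 CPM. Camk2n1 and Camk2n2, which encode inhibitors of CaMKII, together gave 16.1 and 17.8 footprints per 100 CaMKII footprints at E12.5 and 12.4 and 8.59 at P0, although Camk2n1 itself rose. These ratios carry no test and are not divided by length.

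**Figure D4:**
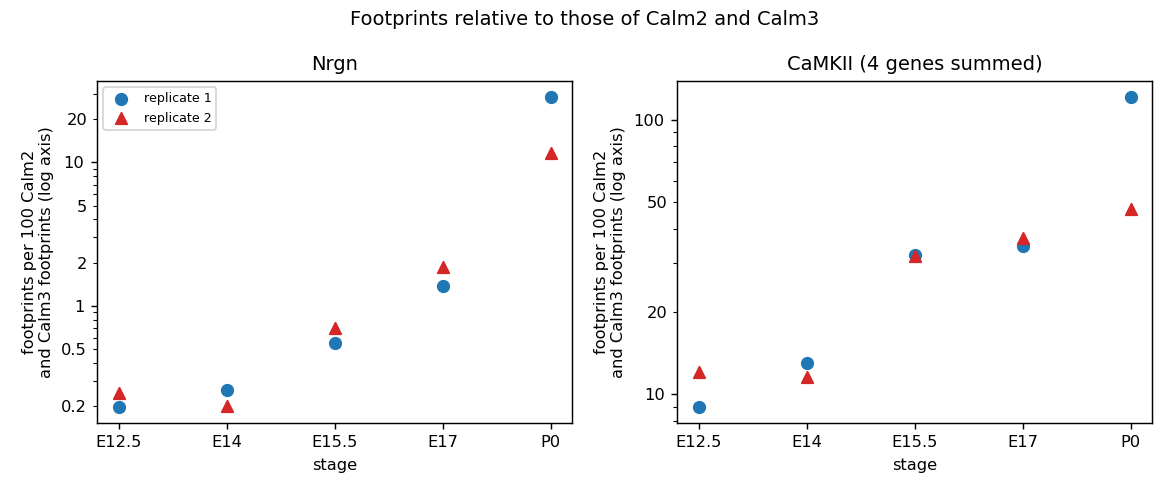
Footprints of Nrgn (left) and of the 4 CaMKII genes summed (right) per 100 footprints of Calm2 and Calm3 summed, on log axes, in each library by stage. Nrgn lies between 0.196 and 0.258 at E12.5 and E14 and at 28.8 and 11.7 at P0, and CaMKII has its first large step at E15.5.

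Likeness of profile was measured as the root mean square difference between log2 CPM values, each gene centred on its mean over the 10 libraries, among the 9214 genes whose counts averaged 100 or more. The genes nearest to Nrgn were Vsnl1, a calcium sensor, at 0.52, Rprml at 0.65, Fabp3-ps1 at 0.70, Grp, a neuropeptide gene, at 0.72, and Ptk2b, a calcium-dependent tyrosine kinase, at 0.72, against a median of 2.6 over all genes. Fabp3-ps1 is named as a pseudogene, and whether its reads come from its parent gene is not known. Nearest to Camk2b were Prkar1b, a regulatory subunit of protein kinase A, at 0.15 and Gad1, an enzyme of GABA synthesis, at 0.16, and nearest to Camkv were Prkar1b at 0.18 and Chd5 at 0.18. Camk4 was nearest to Gas7 at 0.14 and Stx1a, a syntaxin of the synapse, at 0.17, Camk2a to Tbc1d5 at 0.24 and Cbs at 0.29, Camk2g to Klc1, a kinesin light chain, at 0.07 and Farp1 at 0.08, and Camk2d to Timm10 and Rrp7a at 0.09 each. Calm2 was nearest to Akap5, which anchors calcineurin and protein kinase A, at 0.10 and Ube2v2 at 0.13, and Calm3 to Rab5b at 0.10 and Hsbp1 at 0.11. Among the 9 genes themselves, Calm2 and Calm3 were closest at 0.21, followed by Camk2b and Camkv at 0.27, and Nrgn was farthest from the rest, with 1.21 to Camk2b and 2.43 to Calm2. All distances of Nrgn include its values at E17 and P0, by which it was chosen. Its place among the 9 genes and its nearest genes follow in part from that choice and are a description only.

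The wider calcium and calmodulin system was read from 6 lists with 72 genes, of which Dapk2, Adcy8, Itpka and Pvalb had too few footprints to test. From E12.5 to P0, 48 of the 68 tested genes rose, 8 fell and 12 were not called, with a median log2 change of 1.20, against 30.1% higher, 32% lower and a median of -0.01 over all tested genes. All 13 tested genes of the other CaM kinases, CaM kinase kinases and CaMKII inhibitors rose, with a median of 2.14, led by Camk2n1 (2.78, from 10.2 to 71.6 CPM) and Camk1d (2.74, from 4.05 to 26.7 CPM). The call of Dapk3, a death-associated protein kinase, was lost without E12.5 replicate 1. The neuronal calcium sensors and buffers followed with 11 of 13 higher, 0 lower and a median of 2.29, the call of Kcnip1 being lost with sample quality weights. Vsnl1, which encodes visinin-like protein, rose from 1.37 to 99.0 CPM (log2 6.19), and Hpcal4, a hippocalcin relative, from 1.43 to 48.1 CPM (log2 5.00).

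Of 13 genes of calcineurin, the phosphatase that calmodulin activates, and its regulators, 7 rose and 4 fell, with a median of 0.61. Over all tested genes 30.1% rose and 32% fell, so that the number falling was near the background. Those that rose included the catalytic subunit genes Ppp3cc (log2 2.61, from 0.554 to 3.05 CPM) and Ppp3ca (log2 1.48, from 34.7 to 96.9 CPM). The rise of Cabin1 lost its call with DESeq2, with sample quality weights and without E12.5 replicate 1. That of Ppp3r1 lost it with sample quality weights and without E12.5 replicate 2 or P0 replicate 2. The 4 that fell were Nfatc1, Nfatc2, Nfatc3 and Nfatc4, transcription factors that calcineurin releases to the nucleus, led by Nfatc4 (log2 -3.30, from 9.73 to 1.06 CPM) and Nfatc2 (log2 -2.14, from 3.02 to 0.757 CPM). The call of Nfatc1 was lost without E12.5 replicate 2, without P0 replicate 2, with total counts, with DESeq2 and with sample quality weights. Meningeal and choroid plexus markers fell over the same span, from 371 to 388 CPM to 17.7 to 27.2 CPM and from 288 to 363 CPM to 14.5 to 14.8 CPM, and their part in these falls was not tested.

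Among nuclear targets of the CaM kinases, 7 of 12 rose and 2 fell, with a median of 0.89, against 30.1% and 32% of all tested genes. The rise of Hdac4 lost its call with DESeq2, with sample quality weights and without E12.5 replicate 1, E12.5 replicate 2 or P0 replicate 1. Mef2c, a neuronal transcription factor freed from histone deacetylases by CaM kinase signalling, rose from 113 to 2777 CPM (log2 4.61), and Crtc1, a coactivator of CREB, from 5.12 to 20.2 CPM (log2 1.95). Creb1 fell from 180.0 to 79.3 CPM (log2 -1.20) and Crtc2 from 1.17 to 0.444 CPM (log2 -1.37), and the call of Crtc2 was lost without P0 replicate 2 (adjusted p = 0.0852), with DESeq2 (0.0585) and with sample quality weights (0.160). Of 11 other calmodulin-regulated enzymes and pumps, 7 rose and 1 fell, with a median of 0.97, against the same 30.1% and 32%. The rise of Atp2b4 lost its call with sample quality weights and without E12.5 replicate 2. Adcy1, a calmodulin-stimulated adenylyl cyclase, went from 0.222 to 3.25 CPM (log2 3.49, SE 0.71), with few footprints at E12.5. The phosphodiesterase gene Pde1a went from 6.37 to 61.5 CPM (log2 3.27, SE 0.16), whereas Pde1b fell by 0.93 on the log2 scale. The calmodulin-binding growth and membrane proteins gave 3 of 6 higher and 1 lower, with a median of 0.65, against the same shares of all tested genes. Gap43, the growth cone protein of the neurogranin family, rose from 85.6 to 708 CPM (log2 3.03) and Basp1 from 215 to 703 CPM (log2 1.70). Pcp4l1, a calmodulin-binding relative of Pcp4, fell (log2 -1.66), a call lost without E12.5 replicate 1, without P0 replicate 2, with total counts, without the filter, and with edgeR, DESeq2 or sample quality weights (adjusted p of 0.0763 to 0.281). It was at 4.15 and 3.68 CPM at E14 and 0.211 and 0 CPM at E15.5, the step at which the choroid plexus markers went from 1159 and 1163 CPM to 14.3 and 11.1 CPM. The part of that tissue in the fall was not tested.

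**Figure D5:**
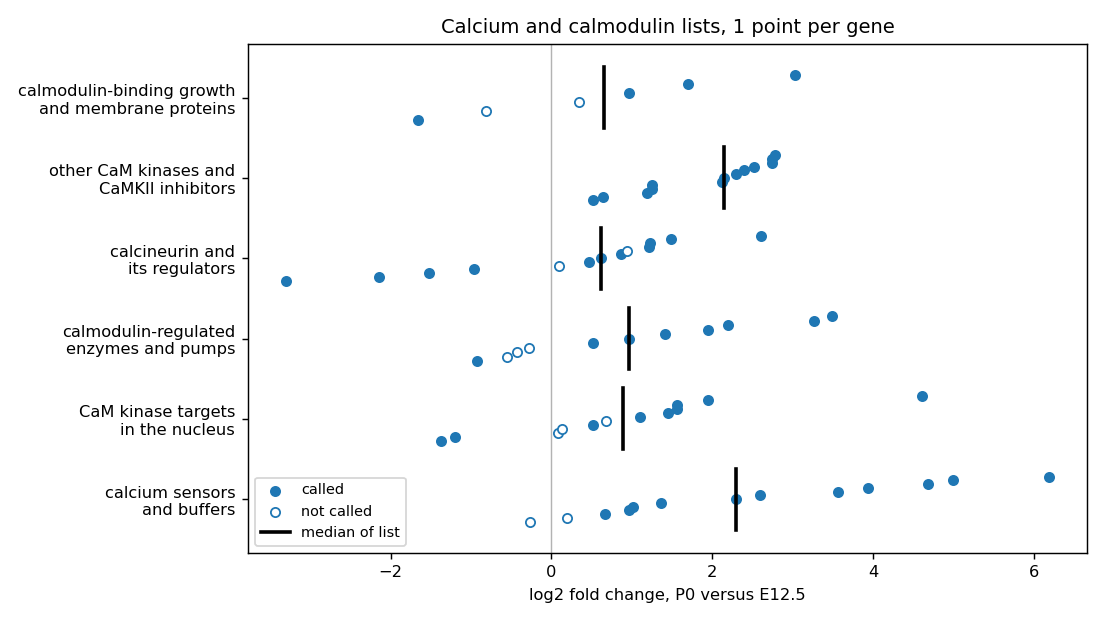
Log2 fold change from E12.5 to P0 of every tested gene in 6 calcium and calmodulin lists, with filled points for genes called, open points for genes not called and a black bar for the median of each list. All 13 points of the list of other CaM kinases, CaM kinase kinases and CaMKII inhibitors lie to the right of 0, and in the calcineurin list the 4 filled points left of 0 are the Nfatc genes.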

How the data were processed

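Ribosome footprints were measured in 10 neocortex libraries, 2 at each of 5 stages. According to the study's methods, adapters were removed with cutadapt, contaminants were discarded with Bowtie 2, and reads were aligned with STAR to GENCODE M12 (the submitters' processing notes list STAR 2.7.0). The authors deposited 1 table of whole-number counts per gene and library. Whether it came from the gene-level tximport step that the methods describe, and how multi-mapped reads were divided, is not given in the sources used here.

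Symbols were matched for 22274 of 22373 genes. Genes with at least 32 footprints, summed over both libraries of a stage, in at least 1 stage were tested with voom in limma 3.58.1 (R 4.3.3) on TMM-scaled counts, with 1 coefficient per stage and no covariate, all 10 libraries sharing the spread, after the design in the study's methods. Calls needed an absolute log2 fold change of at least 0.32 and an adjusted p under 0.05 (moderated two-sided test, Benjamini-Hochberg over 13484 genes). CPM are counts relative to the TMM-scaled library size. Alternatives were total-count and RLE scaling, no filter, edgeR 4.0.16 (quasi-likelihood), DESeq2 1.42.0, sample quality weights, a replicate block and leaving out each library. The fit was tested on simulated counts, with 1 spread per gene for all libraries and 1 mean profile for all stages apart from the changes put in. The larger spread at P0 was thus not part of that test, and its outcome is not reported here. Family shares were compared by an exact permutation test over 70 assignments. Coding lengths were not used here, so shares and ratios are not divided by length.

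The 9 genes, the lists and the tests were chosen with earlier results of these data known. Named list genes are the up to 2 with the largest rise and the up to 2 with the largest fall from E12.5 to P0 among those called in a list. Nearest profiles were limited to 5 genes for Nrgn and 2 for each other gene, and the 2 genes ranked after Nrgn by rise at birth are named. Some planned results are not reported here. The genes that were not tested, the other Nfatc genes, Camk2n2, list genes named only for a lost call and single marker genes were named after their values were seen. The libraries of a stage were made in biological duplicate from pooled brains. The p-values of the gene fits rest on 1 spread per gene, shared by the pools of all stages. Replicates differed more at P0 (SD of the log2 ratio 0.54) than at the other stages (0.13 to 0.22). These p-values therefore do not measure the spread between the pools of the stages compared. They can understate it in comparisons with P0 and overstate it between embryonic stages. The permutation test of the shares groups libraries of different stages, and its p does not measure the spread between libraries of the same stage. Promoter sequences are from RefSeq.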

Additional observations from a re-analysis of the deposited data

How the results depend on the processing

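Of 732 values of single genes under the alternatives, 657 kept their direction and their side of the threshold, 29 gained a call, 41 lost one and 5 reversed, and no list gene called from E12.5 to P0 reversed. The reversals were Camk2d from E14 to E15.5, which was 0.26 with total counts and ranged from -0.096 to 0.0074 with 1 library left out, the high end being without E14 replicate 1, Calm2 and Calm3 from E17 to P0, which ranged from -1.04 to 0.55 and from -0.65 to 0.16, positive without P0 replicate 1, and Calm2 from E12.5 to P0, at -0.27 without P0 replicate 2. Under sample quality weights, the Calm3 change from E12.5 to P0 was 0.65 and no longer called (adjusted p = 0.0542), and the calls of Camk2g (adjusted p = 0.0583) and Camkv (adjusted p = 0.0983) from E17 to P0 were lost. With the same weights, calls were gained by Camk2g from E12.5 to E14 (limma adjusted p = 0.0476) and Camk4 from E15.5 to E17 (limma adjusted p = 0.00565). From E12.5 to E14, 86 of all genes were called (limma), 143 with total counts, 27 without the filter, 388 with DESeq2 and 655 with quality weights. The 2 calls among the 8 genes became 1 without the filter and 4 with quality weights. From E15.5 to E17, 1219 genes were called, 773 without the filter and 3717 with quality weights, and the 1 call among the 8 became 2 with total counts, RLE or DESeq2, 4 with quality weights and 0 without the filter or with edgeR. From E17 to P0, 2767 genes were called and 698 with quality weights, 5 and 3 of them among the 8 genes. Leaving out 1 library gave 0 to 1062, 2739 to 6329, 0 to 2863 and 552 to 4419 calls over all genes at the 4 steps and 6920 to 9185 from E12.5 to P0, and 0 to 4, 4 to 6, 0 to 3, 3 to 7 and 6 to 8 calls among the 8 genes. Calls among list genes ranged from 52 to 58. Calm2 from E12.5 to P0 ranged from -0.27 to 1.32 and Calm3 from 0.42 to 1.23. The late minus early shares ranged from -6.74 to -4.42 percentage points for Camk2a, 39.8 to 44.7 for Camk2b, -23.4 to -21.2 for Camk2d and -14.6 to -13.4 for Camk2g. Taken as P0 minus E12.5 only, the CaMKII shares differed by -7.53, 48.8, -25.4 and -15.9 points for Camk2a, Camk2b, Camk2d and Camk2g. Shares per kb were not run, since coding lengths were not used here. The cause of these differences was not tested.

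Same-numbered libraries did not deviate together in every pair of stages. The correlation of their deviations ran from -0.63 to 0.43 over 10 pairs of stages. All 5 values over 0.1 were between stages after E12.5, and the 4 with E12.5 were negative, so the replicate numbers were not taken to pair the libraries. With a replicate block, 4 genes were called from E12.5 to E14, 819 from E15.5 to E17, 2124 from E17 to P0 and 8017 from E12.5 to P0, with 0 of the 8 genes at the first and the third step, where Camk2b (adjusted p = 0.0720 and 0.0650) and Camk4 (adjusted p = 0.0870, first step) were not called under limma with the block.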

Other observations

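The 9 genes did not share the difference between the P0 replicates. The log2 ratio of replicate 2 to replicate 1 was 1.62 for Calm2, 0.84 for Calm3, 0.56 for Camkv and 0.49 for Camk2d, and it was 0.24 for Camk4, 0.21 for Camk2g, -0.04 for Camk2a, -0.06 for Nrgn and -0.19 for Camk2b. The SD of this ratio over 4559 well-covered genes was 0.54. At E17 the same ratio was -0.013 for Calm2, -0.0079 for Camk2d and -0.0050 for Camk2g, and it was 0.42 for Nrgn and 0.36 for Camk2a. The cause was not tested.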
